A study of Mus musculus with 26 samples.

Results

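The mitochondrial respiratory chain genes followed here are the nuclear genes for subunits of complexes I to V and the factors that share their gene names, in the medial joint compartment of mouse knees before and after surgery. The members are all genes whose probe sets carry 1 symbol beginning with Ndufa, Ndufb, Ndufc, Ndufs, Ndufv, Sdh, Uqcr, Cox4, Cox5, Cox6, Cox7, Cox8 or Atp5. This gave 94 genes with 185 probe sets, of 18193 genes with a probe set of their own. Each gene was read from its brightest probe set, and 91 of the 94 genes passed the filter on low signals (Cox4i2, Cox7b2 and Ndufb4 did not). Membership was set by names alone, while the choice of probe set and the filter used the mean signal over all arrays. A further 10 probe sets with such a symbol carried several symbols and were left out.

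All mice were male C57BL/6, and every operated mouse had its surgery at 12 weeks of age. Destabilization of the medial meniscus (DMM), in which the medial meniscotibial ligament is cut so that the joint becomes unstable and osteoarthritis develops, was compared with sham surgery at 2, 4, 8 and 16 weeks (14, 16, 20 and 28 weeks of age), and unoperated mice gave the time 0 samples at 12 weeks of age. Each array held RNA pooled from 3 mice, with 3 pools per group and 2 for DMM at 2 weeks (the remaining pool failed the check of RNA integrity), 26 arrays in all. The tissue was the whole medial side of the joint (cartilage, subchondral bone, meniscus, and capsule with synovium), with muscle outside the joint removed at dissection, so a level is an average over many cell types, and fewer cells of a type and less RNA per cell cannot be told apart. Chondrocyte markers such as Col2a1 and Comp were bright on average (log2 signals of 12.85 and 13.39), and skeletal muscle markers were also present, with a mean log2 signal over 20 muscle genes (the muscle score) of 9.18 to 12.12 per pool. 2 of the 22 muscle markers listed, Myl2 and Tnni1, were below the filter on low signals. The arrays were on 1 scale, with median log2 signals between 7.90 and 7.95.

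Complex I (the Nduf genes) takes electrons from NADH and complex II (the Sdh genes) takes them from succinate. Both hand them through ubiquinone to complex III (the Uqcr genes), which passes them by cytochrome c to complex IV (the Cox genes), where oxygen is reduced. The proton gradient that results drives complex V, the ATP synthase (the Atp5 genes). Most of these subunits are made in nearly all cells, but complex IV has some subunits with a second gene that is used in heart and skeletal muscle: Cox6a2 in place of Cox6a1, Cox7a1 in place of Cox7a2, and Cox8b in place of Cox8a. Articular chondrocytes live at low oxygen and are known to rely largely on glycolysis.

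The promoters of these isoform genes are shown because the results below set the muscle isoforms beside their counterparts. The promoter of Cox6a2 was not analysed here, so Cox7a1 and Cox8b alone stand for the muscle isoforms in what follows on CG and motifs. The 250 bases before the start of transcription are printed 5′ to 3′ on the strand of the gene, from RefSeq on GRCm38.p6, with each CG in capitals. Cox7a1 lies on chromosome 7 (chr7:30183921-30184170, plus strand) and Cox8b on the same chromosome (chr7:140900447-140900696, minus strand), while Cox7a2 is on chromosome 9 (chr9:79759854-79760103, minus strand) and Cox6a1 on chromosome 5 (chr5:115348959-115349208, minus strand).
Cox7a1: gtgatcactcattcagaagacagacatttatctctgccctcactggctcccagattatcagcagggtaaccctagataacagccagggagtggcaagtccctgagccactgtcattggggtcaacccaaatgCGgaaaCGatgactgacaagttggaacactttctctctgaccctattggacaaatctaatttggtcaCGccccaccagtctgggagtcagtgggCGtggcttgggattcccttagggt
Cox8b: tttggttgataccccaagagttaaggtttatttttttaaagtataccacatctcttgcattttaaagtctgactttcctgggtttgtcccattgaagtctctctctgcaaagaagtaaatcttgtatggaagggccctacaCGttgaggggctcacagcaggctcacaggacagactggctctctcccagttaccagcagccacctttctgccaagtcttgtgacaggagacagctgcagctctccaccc
Cox7a2: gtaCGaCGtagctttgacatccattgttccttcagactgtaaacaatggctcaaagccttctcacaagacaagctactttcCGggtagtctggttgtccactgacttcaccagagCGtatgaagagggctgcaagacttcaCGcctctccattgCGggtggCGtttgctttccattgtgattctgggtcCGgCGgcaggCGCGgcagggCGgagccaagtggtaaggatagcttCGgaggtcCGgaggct
Cox6a1: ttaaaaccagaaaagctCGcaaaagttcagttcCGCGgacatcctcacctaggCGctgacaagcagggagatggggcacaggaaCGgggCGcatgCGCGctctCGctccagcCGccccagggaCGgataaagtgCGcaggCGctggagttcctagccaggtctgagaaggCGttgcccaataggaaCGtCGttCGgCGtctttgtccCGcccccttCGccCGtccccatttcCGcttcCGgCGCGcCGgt
The muscle isoforms Cox7a1 and Cox8b held 4 and 1 CG, and the widely used isoforms Cox7a2 and Cox6a1 held 14 and 26. Cox8a held 11. The median over all RefSeq promoters was 6, and over the promoters of the members it was 15. Among windows of 300 bases that run to 50 bases after the start, 78 members had at least 1 window (83 windows). On either strand, the core of the site for the factor NRF1, TGCGCA, was in 25.3% of the member windows and in 7.76% of all windows. The GABP motif CCGGAAG was in 26.5% against 8.86%, the YY1 motif AAGATGG in 13.3% against 6.34%, and the ERR motif AAGGTCA in 9.64% against 4.72%. The TATA box letters TATAAA were in 12% against 13.6%, and the E box CANNTG in 67.5% against 72.3%. These are matches of letters and not bound sites. The Cox6a1 stretch above holds 1 match each to the NRF1 and GABP letters, and the stretches of the other 3 genes hold none.

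The main comparison was DMM against sham in the same week. At 4 weeks the members were lower in DMM than in sham joints: 38 of 91 were called lower and none higher. A ratio below 0 was found in 84, beside 54.2% of all genes. For DMM against sham, a fall means a level under that of sham and not a decrease from time 0. Of all 11511 genes tested, 7.09% were called lower and 13.2% higher in the same comparison (limma, adjusted p under 0.05, over 22489 probe sets). The median log2 ratio of the members was -0.19, beside -0.02 for all genes. The falls were small, from 0.16 to 0.46 on the log2 scale, and on the linear scale the signal of the gene called with the largest change fell by 27.4% and that with the smallest fell by 10.8%. Set against the sham mean, the 3 DMM pools had member medians of -0.14, -0.23 and -0.24. In 63 of the 91 genes all 3 DMM pools lay below all 3 sham pools, beside 18.7% of all genes, and in 35 of the 38 genes called. The exceptions were Ndufs8, Uqcr10 and Atp5g2.

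Each of the 5 complexes had at least 1 subunit called lower, where 7.09% of all genes were. For complex II this was Sdhb, whose call was kept in 1 of 6 fits without a pool and in 4 of 7 other alternatives. Complex I had 15 of 33 subunits called lower, with a median log2 ratio of -0.20 and every subunit below 0. Complex II had 1 of 4 (median -0.15), complex III 4 of 8 (median -0.23), complex IV without its muscle and other tissue isoforms 6 of 10 (median -0.23), and complex V 10 of 17 (median -0.23). Assembly factors, which help to build the complexes and are not part of them, had a median of -0.04, with 6 of 13 above 0 and 2 called lower (Ndufaf3 and Ndufaf8). None of these differences between complexes was tested.

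**Figure D1:**
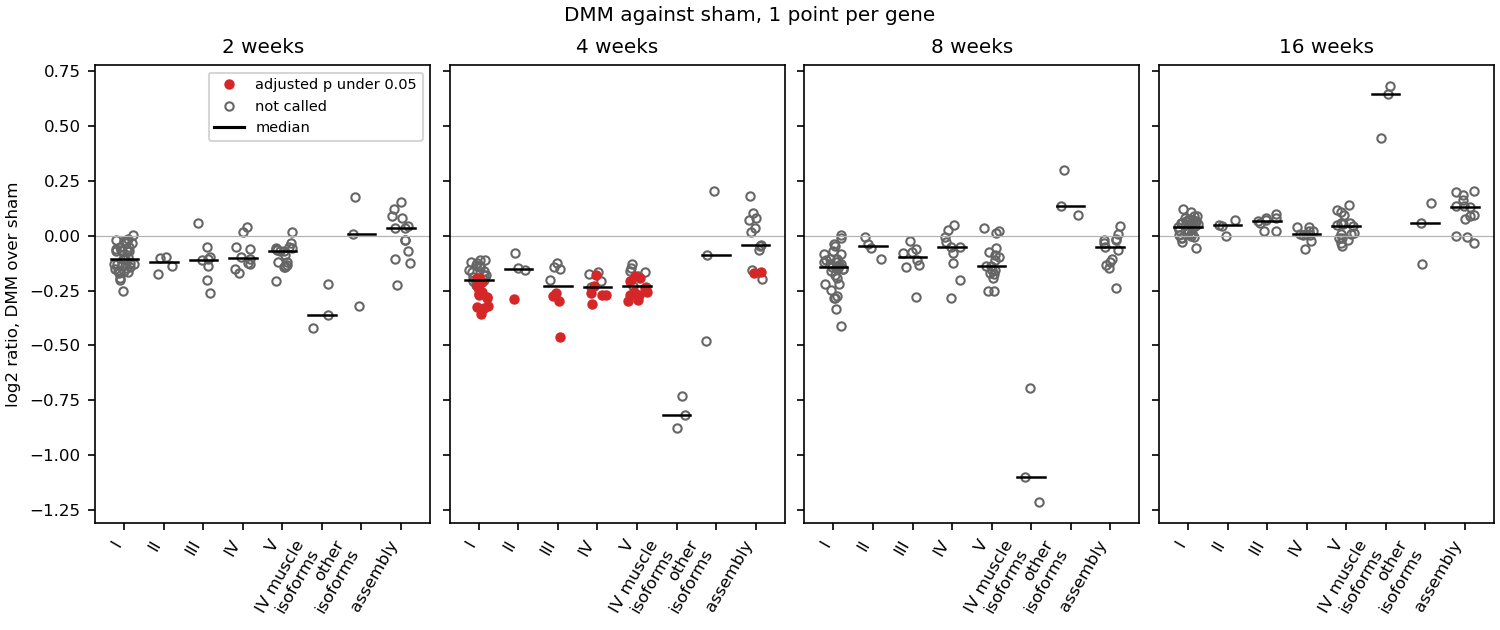
Log2 ratio of DMM over sham for each of the 91 tested genes at 2, 4, 8 and 16 weeks, by complex, with filled points for an adjusted p under 0.05 and bars for the median of each set. The 38 filled points are all at 4 weeks and all below 0, and the muscle isoforms lie farthest from 0 without being called.

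The largest fall among the genes called was that of Uqcrc1, a core subunit of complex III. Its log2 signal was 11.86, 11.89 and 11.84 in the sham pools and 11.57, 11.33 and 11.29 in the DMM pools at 4 weeks. The groups did not overlap, and the log2 ratio was -0.46 ± 0.12 (SE, n = 3 and 3 pools, adjusted p = 0.00927). This SE, like the SE values below, was estimated from the spread within groups over all 26 arrays. At time 0 the pools had 11.54, 11.69 and 11.72, between the sham and DMM values in 2 of 3 pools. Ndufa10, a subunit of complex I, came next. It had 11.67, 11.75 and 11.71 in the sham pools and 11.49, 11.28 and 11.30 in the DMM pools, and it fell by 0.36 ± 0.09 (adjusted p = 0.0109). Ndufs7, one of the complex I subunits that carry an iron-sulfur cluster, had 11.59, 11.56 and 11.58 in sham and 11.31, 11.21 and 11.21 in DMM, a fall of 0.33 ± 0.10 (adjusted p = 0.0317). In the 6 fits without a pool, Uqcrc1 stayed called in 4, Ndufa10 in 3 and Ndufs7 in 1.

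The smallest adjusted p belonged to Ndufa4, which is named for complex I but is a subunit of complex IV. Its log2 signal was 13.12, 13.08 and 13.02 in the sham pools and 12.82, 12.74 and 12.73 in the DMM pools at 4 weeks, and the time 0 pools lay in between at 12.84, 12.85 and 12.90. It fell by 0.31 ± 0.06 (adjusted p = 0.0031). Its relative Ndufa4l2, which is induced at low oxygen in many cells, had the highest ratio of all members. It read 8.52, 8.38 and 8.54 in sham and 8.58, 8.73 and 8.74 in DMM, without overlap, and its log2 ratio of 0.20 ± 0.10 was not called (adjusted p = 0.146).

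Of the brightest subunits of each complex, Sdhb (the iron-sulfur subunit of complex II) and Atp5h (a stalk subunit of complex V) were called. Sdhb read 12.23, 12.09 and 12.12 in sham and 11.98, 11.78 and 11.82 in DMM (fall of 0.29 ± 0.09, adjusted p = 0.0326). Atp5h read 13.57, 13.51 and 13.54 in sham and 13.40, 13.29 and 13.37 in DMM (fall of 0.19 ± 0.06, adjusted p = 0.0354). Both pairs of groups were fully separate. The Atp5h call was kept in 1 of 6 fits without a pool and in 3 of 7 other alternatives, where its weakest log2 ratio was -0.05. The other 3, Ndufa1, Uqcrb and Cox6a1, had log2 ratios of -0.14 ± 0.05, -0.14 ± 0.07 and -0.16 ± 0.07 with adjusted p-values of 0.0579, 0.123 and 0.102, and all their DMM pools lay below all sham pools as well. The other subunits of complex II were not called: Sdha, the flavin subunit, had -0.16 ± 0.08 (adjusted p = 0.163), and the membrane anchors Sdhc and Sdhd had -0.15 ± 0.08 (0.207) and -0.08 ± 0.06 (0.371).

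In complex IV, the regulatory subunit Cox4i1 read 13.44, 13.42 and 13.43 in sham and 13.27, 13.09 and 13.12 in DMM, a fall of 0.27 ± 0.08 (adjusted p = 0.0193). Cox8a fell by 0.27 ± 0.08 (adjusted p = 0.0263) and Cox7a2 by 0.23 ± 0.06 (adjusted p = 0.00926). Cox6b1, which lies where the monomers of complex IV meet, had 1 of the 3 smallest falls called (0.18 ± 0.06, adjusted p = 0.0482), together with the assembly factors Ndufaf3 (0.17 ± 0.06, adjusted p = 0.0449) and Ndufaf8 (0.16 ± 0.05, adjusted p = 0.034). Each of these 3 calls was kept in 1 of 6 fits without a pool, where Cox4i1 was kept in 3, Cox8a in 2 and Cox7a2 in 6. The weakest Ndufaf8 ratio over all alternatives was -0.02. The testis isoform Cox6b2 had a log2 ratio of -0.48 ± 0.20 (adjusted p = 0.0877) with overlapping pools. Cox4i2, the isoform of lung and of low oxygen, was under the filter, with log2 signals of 7.20 to 7.59 in the sham pools and 7.30 to 7.40 in the DMM pools at 4 weeks.

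Probe sets other than the brightest gave the same direction. Of 68 such probe sets that were tested, for 45 members, 64 lay below 0 at 4 weeks, and 25 were called lower and 0 higher. In the same comparison 54.2% of all genes lay below 0 and 7.09% were called lower, each gene read from its brightest probe set. Of all 22489 probe sets, 4298 were called, higher and lower together, so this count is not a share called lower. The 68 other probe sets were read from the same pools as the brightest. Of the 33 that belong to called genes, 31 lay below 0 and 17 were called. Atp5pb, Cox5a, Ndufa7, Ndufb2, Ndufb9 and Ndufv1 were called lower by another probe set and not by the brightest (named after their values were seen), while for Ndufaf8 and Uqcr10 another probe set lay above 0. Among the brightest probe sets, 7 carry the array maker's suffix for probes that can cross-hybridize, Cox8a among them, and 14 the suffix for probes shared between transcripts of different genes, so these values may include near-identical copies.

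The number called at 4 weeks depended on single pools. When sham replicate 1 was left out, 15 members were called lower, with 5.46% of all genes. Leaving out the second sham pool gave 8 (1.5%). Of the DMM pools, leaving out replicate 2 gave 8 (1.8%), leaving out replicate 3 gave 9 (2.18%) and leaving out replicate 1 gave 41 (11%), while the fit that lacked the third sham pool gave 30 (5.35%). All 38 genes kept a ratio below 0 in every alternative. Ndufa4 and Ndufb11 (a complex I subunit) stayed called in all 6 fits without a pool and in all 7 other alternatives. Quantile normalization left 16 of the 38 called, with 7.2% of all genes called lower. Fitting only the 6 arrays of these 2 groups left 6 (9 members in all), with 2.44% of all genes called lower.

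Markers of other cell types were read in the same comparison, in which 7.09% of all genes were called lower and 13.2% higher. The muscle score was 11.48, 11.47 and 11.41 in the sham pools and 11.06, 10.37 and 10.94 in the DMM pools at 4 weeks, with no overlap, and the 20 muscle genes had a median log2 ratio of -0.74 with 0 called. With the muscle score as a term in the fit, 23 members were called lower, beside 4.48% of all genes, with a median member ratio of -0.16, and 20 of these were among the 38. Of the 4 fat cell markers, 3 fell (Adipoq by 0.89, Fabp4 by 0.75 and Lep by 0.42 on the log2 scale), and the log2 of their summed signal was 13.90 to 14.14 in sham and 13.03 to 13.43 in DMM. Of 7 neutrophil genes, 2 fell (Camp and Mpo), and of 9 chondrocyte genes 1 rose (Acan, by 0.54), a count near the share of all genes. Of 5 osteoblast genes 1 rose (Ibsp, by 0.46), and none of the tested osteoclast, macrophage, erythroid or brown fat genes was called. The part of fat cells, neutrophils and bone cells and cartilage in the members' fall was not tested. The 3′ to 5′ Gapdh ratio is a measure of how intact the RNA was. With it as a term, 36 of the 38 were called, and 7.36% of all genes were called lower. What part RNA quality had in the members' fall was not tested.

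The other weeks gave no call of a member in DMM against sham. At 2 weeks (0.938% of all genes called lower and 1.96% higher) the median log2 ratio was -0.10, beside -0.03 for all genes, and 5 members had an unadjusted p under 0.05, all lower (9.61% of all genes). Under quantile normalization this count was 18 and the median -0.14. Fits that lacked sham replicate 2 or sham replicate 3 called 3 and 1 members in this week (the shares of all genes in these fits are not given). Apart from the muscle isoforms, the members at the ends were Cox6b2 at -0.32 ± 0.22 and Ndufa4l2 at 0.17 ± 0.11 (adjusted p = 0.478 and 0.428). At 8 weeks 0% of genes were called in either direction. The members then had a median of -0.11, beside 0.01 for all genes, and 30 of 91 had an unadjusted p under 0.05, all lower, where 7.71% of all genes did. In 36 members the DMM pools lay below all sham pools, beside 7.71% of all genes.

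At 8 weeks the complex I subunit Ndufc1 had the lowest ratio after the muscle isoforms. It read 12.61, 12.39 and 12.43 in sham and 12.02, 12.01 and 12.17 in DMM, without overlap, a log2 ratio of -0.41 ± 0.10 (unadjusted p = 0.000462, adjusted p = 0.16). Ndufb5, also of complex I, read 11.94, 11.96 and 11.96 in sham and 11.63, 11.55 and 11.68 in DMM, a ratio of -0.33 ± 0.09 (adjusted p = 0.176). Among the complexes, the medians at 8 weeks were -0.14 for I and V, -0.10 for III, and -0.05 for II and IV. Uqcrc1 and Ndufa10, the genes with the lowest ratios among those called at 4 weeks, were at -0.07 ± 0.12 and -0.01 ± 0.09 at 8 weeks, with overlapping pools. Under quantile normalization the median at 8 weeks was -0.05, with 13 members under the unadjusted threshold.

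At 16 weeks the median of the members lay above 0. It was 0.05, beside 0.01 for all genes, with 73 of 91 members above 0 (47.7% of all genes lay below 0). The 3 DMM pools differed in this, with member medians of 0.10, -0.03 and 0.08 against the sham mean, and in the pool at -0.03 (replicate 2) 67 of 91 members lay below it. Only 4 members had an unadjusted p under 0.05, all higher (6.44% of all genes), and 0.0521% of all genes were called higher. All 8 complex III genes and 27 of 33 complex I genes were above 0, with ratios of at most 0.12. The highest ratio outside the muscle isoforms was that of the complex II assembly factor Sdhaf1, 0.20 ± 0.07 (adjusted p = 0.505), and the lowest was that of the testis isoform Cox8c, -0.13 ± 0.08 (adjusted p = 0.809).

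The change of the DMM effect between weeks was tested directly. For 4 against 8 weeks, 0 members were called (0.2% of all genes lower and 1.42% higher), the median difference was -0.07, and 8 members had an unadjusted p under 0.05, 7 lower and 1 higher, where 13.5% of all genes were lower and 16.1% higher at that threshold. The count of calls went from 0 to 8 when the first sham pool of 8 weeks was left out, and to 4 when the first DMM pool of 4 weeks was. How many of all genes were called in those fits is not given here. For 4 against 16 weeks, a comparison chosen after the values were seen, the median difference was -0.24, beside -0.01 for all genes. Of the members, 88 of 91 were below 0, beside 52.6% of all genes. Here 47 members had an unadjusted p under 0.05, all lower, where 6.72% of all genes did, but no member and no other gene was called (0% of all genes in either direction). Under quantile normalization 25 members passed the unadjusted threshold and the median was -0.20. The 2 differences share the 4-week pools.

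The levels against time 0 show where each group lay. These comparisons share the time 0 pools with each other, and the sham and DMM pools with the ratios above, so the values are given side by side. The mean log2 signal over the 33 complex I subunits was 11.82 ± 0.01 at time 0 (SD, n = 3 pools). Relative to it, the sham pools lay between 0.08 and 0.16 higher at 4 weeks and between 0.08 and 0.22 higher at 8 weeks, while the DMM pools lay between -0.15 and -0.03 at 4 weeks and between -0.07 and -0.002 at 8 weeks. At 16 weeks the DMM pools were above time 0, by 0.02 to 0.16, and the sham pools ran from -0.01 to 0.11. Complexes III and V had the same order of groups at 4 weeks, and complex II differed in that its sham mean stayed at the time 0 level (-0.01) and its DMM mean was at -0.17.

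**Figure D2:**
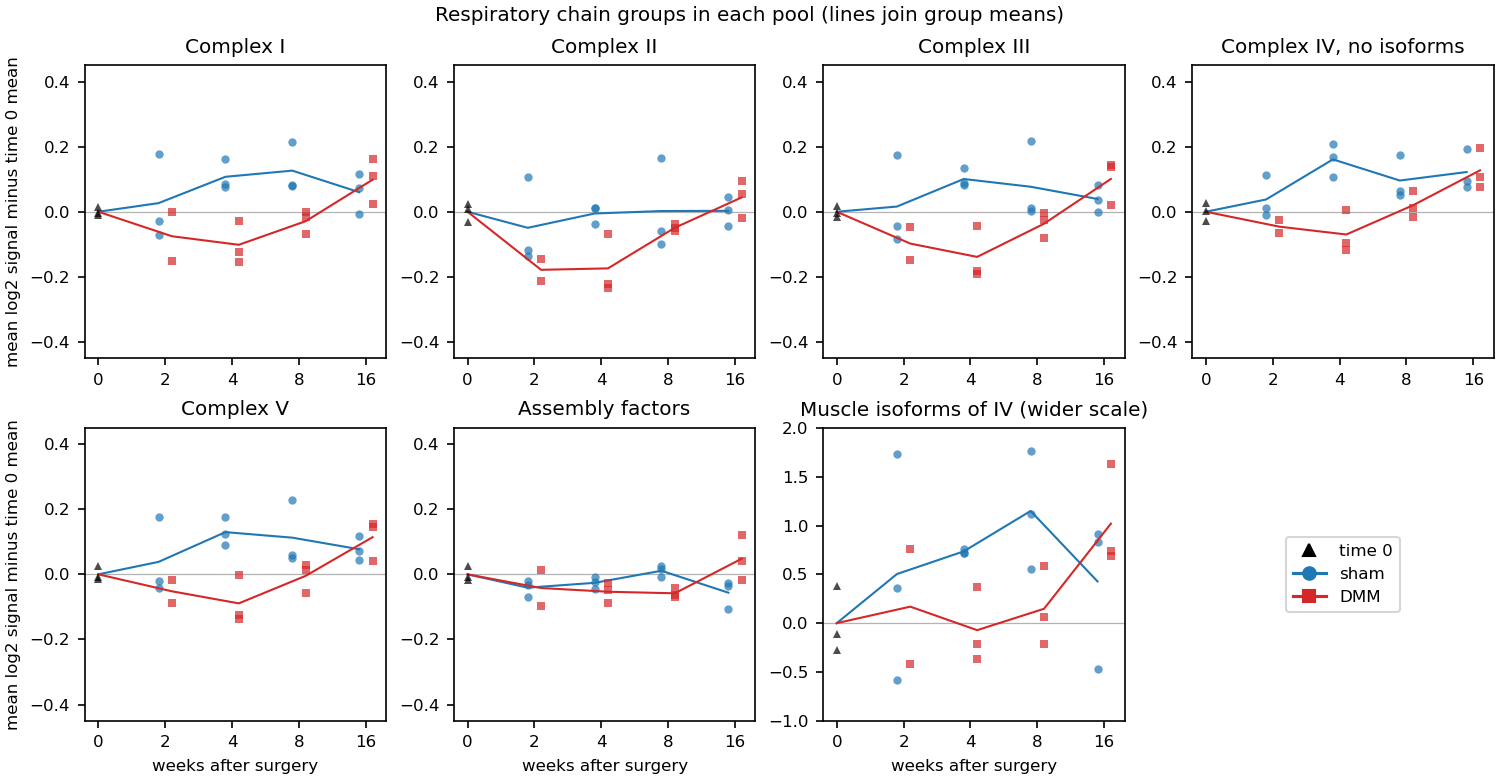
Mean log2 signal of the tested genes of each complex in every pool, minus the mean of the time 0 pools, against weeks after surgery (evenly spaced), with time 0 as triangles, sham as circles and DMM as squares, and lines through group means. At 4 weeks the sham pools of complexes I, III and V lie above 0 and the DMM pools below, and at 16 weeks the groups overlap; the muscle isoforms have a wider scale.

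Against time 0, sham joints had a member median of 0.11 at 4 weeks and 0.11 at 8 weeks with 0 members called. The shares of all genes called at 4 weeks were 0.469% higher and 0.565% lower, and at 8 weeks 0.417% and 0.556%. At 4 weeks 48 members had all sham pools above all time 0 pools, beside 14.6% of all genes, and 27 had an unadjusted p under 0.05 and a higher level (8.13%). This difference depended on the scaling, as the member median at 4 weeks was 0.01 after quantile normalization. Without sham replicate 3, 2 members were called (the share of all genes in that fit is not given). At 2 and 16 weeks the medians were 0.04 and 0.05, and after quantile normalization the former turned to -0.02 and the latter was 0.01, while the median at 8 weeks was 0.04. The one call was Sdhaf2, an assembly factor that helps to attach the flavin to Sdha, at 2 weeks. It read 10.16, 10.22 and 10.12 at time 0 and 10.01, 9.92 and 9.81 in sham, a fall of 0.25 ± 0.06 (adjusted p = 0.049), where 0.382% of all genes were called lower and 1.63% higher. The call was lost in all 3 fits without 1 of the time 0 pools, and without sham replicate 2 or 3. Without sham replicate 1, 3 members were called, again with no share of all genes given. The lowest ratios in sham joints were those of Ndufa4l2 at 4 weeks (-0.27 ± 0.10), Sdhaf4 at 8 weeks (-0.18 ± 0.06) and Ndufaf2 at 16 weeks (-0.20 ± 0.11), and none passed the test (4.93% of all genes were called lower and 1.49% higher at 16 weeks).

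DMM joints against time 0 had 8 members called lower and 1 higher at 2 weeks (16.5% of all genes lower and 16.4% higher). The member called higher was Ndufaf4, a complex I assembly factor (0.31 ± 0.11, adjusted p = 0.0428). The clearest fall was in Ndufaf3, which read 9.60, 9.54 and 9.53 at time 0 and 9.17 and 9.18 in the 2 DMM pools, without overlap (fall of 0.38 ± 0.07, adjusted p = 0.000245). Cox6b2 fell by 0.62 ± 0.22 (adjusted p = 0.036) and Uqcrc1 by 0.35 ± 0.13 (adjusted p = 0.0469). The smallest falls were those of Ndufa3 (0.25 ± 0.09) and Sdhd (0.22 ± 0.07), and the others were Cox8a, Ndufb3 and Sdhaf2. At 4 weeks the member median was -0.08, beside -0.005 for all genes, and 81 of 91 lay below 0 (51.4% of all genes). After quantile normalization this median was -0.13, beside -0.03 for all genes. In this week 3 members were called lower (1.85% of all genes lower and 7.87% higher). These were Ndufaf3 by 0.27 ± 0.06 (adjusted p = 0.00674), Sdhd by 0.24 ± 0.06 (adjusted p = 0.019) and Sdhaf2 by 0.21 ± 0.06 (adjusted p = 0.0438). The number was 9 without DMM replicate 1 and 0 without DMM replicate 3, 1 without DMM replicate 2, and 1 without time 0 replicate 2 or 3. At 2 weeks it was 5 in all without time 0 replicate 2, time 0 replicate 3 or DMM replicate 2. The shares of all genes called in these fits are not given here, so the counts are not results about the members alone.

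At 8 weeks no member was called in DMM against time 0 (0.721% of all genes lower and 0.0869% higher), with Cox8b lowest (-0.27 ± 0.47) and Cox6b2 highest (0.40 ± 0.20). At 16 weeks none was called either (1.34% lower and 0.521% higher). Of the members, 83 of 91 lay above 0, where 37.7% of all genes lay below 0. The member median was 0.11, beside 0.04 for all genes, and 34 members had all DMM pools above time 0, beside 15.2% of all genes. Under quantile normalization the median was 0.06, with 72 of 91 above 0.

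The muscle isoforms of complex IV had the widest ranges of all tested members over the 26 arrays and were called in no comparison. Cox7a1 read 7.50, 8.86 and 8.14 at time 0, 10.45, 8.96 and 7.36 in sham at 2 weeks, 9.33, 9.22 and 9.37 at 4 weeks, 10.44, 9.77 and 9.07 at 8 weeks, and 9.38, 9.58 and 7.88 at 16 weeks. In DMM joints it read 9.48 and 7.92 at 2 weeks, 8.97, 8.21 and 8.30 at 4 weeks, 8.05, 8.50 and 9.09 at 8 weeks, and 10.27, 9.15 and 9.35 at 16 weeks. The sham pools at 2 weeks held both the lowest and the highest value of all 26 arrays. Its DMM against sham log2 ratios were -0.22 ± 0.68, -0.82 ± 0.60, -1.21 ± 0.60 and 0.65 ± 0.60 at 2, 4, 8 and 16 weeks (adjusted p = 0.903, 0.35, 0.424 and 0.909).

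Cox6a2 and Cox8b also had lower means in DMM than in sham at 2, 4 and 8 weeks and higher ones at 16 weeks. Against time 0, Cox8b was at -0.05 ± 0.47 in sham joints at 16 weeks, where Cox6a2 was at 0.56 ± 0.37 and Cox7a1 at 0.78 ± 0.60. At 4 weeks Cox6a2 read 9.86, 9.88 and 9.77 in sham and 9.47, 8.78 and 9.07 in DMM, a log2 ratio of -0.73 ± 0.37 (adjusted p = 0.165). Cox8b read 9.82, 9.78 and 9.74 in sham and 9.39, 8.63 and 8.70 in DMM, a ratio of -0.87 ± 0.47 (adjusted p = 0.196). The pools of both genes were separate at 4 weeks although neither was called. At 8 weeks their ratios were -0.69 ± 0.37 and -1.10 ± 0.47, and at 16 weeks 0.45 ± 0.37 and 0.68 ± 0.47, with overlapping pools except for Cox8b at 8 weeks.

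The counterparts of these genes stayed within narrow limits. Cox6a1 lay between 14.19 and 14.48 over all 26 arrays, Cox7a2 between 13.07 and 13.42, and Cox8a between 11.89 and 12.39. Cox7a2 read 13.36, 13.32 and 13.31 in sham and 13.16, 13.07 and 13.07 in DMM at 4 weeks. This difference, smaller than that of Cox7a1, passed the test with an SE of 0.06, where that of Cox7a1 was 0.60. Each SE rests on the spread within groups over all 26 arrays and not on the 4-week pools alone. The sham and DMM pools of Cox7a1 at 4 weeks did not overlap.

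**Figure D3:**
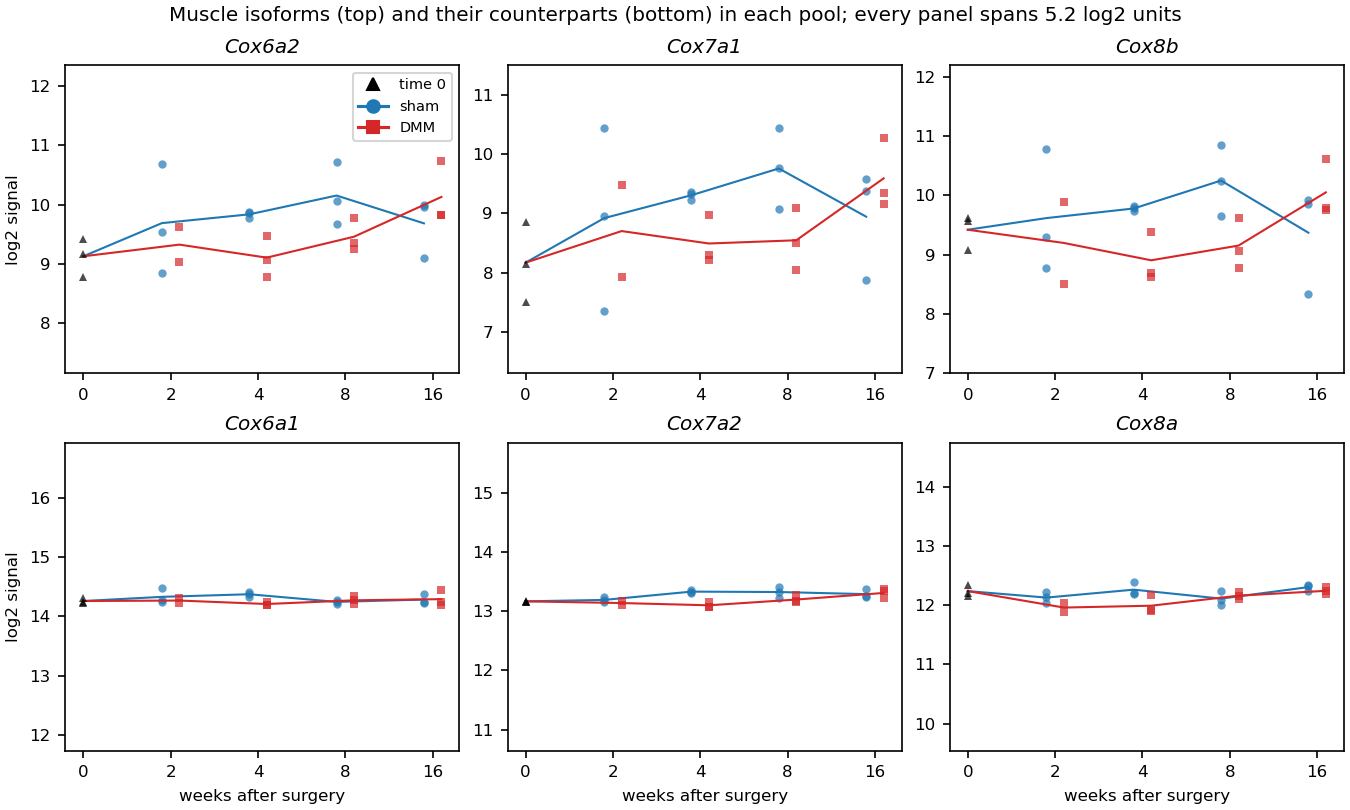
Log2 signal of the muscle isoforms Cox6a2, Cox7a1 and Cox8b (top) and of Cox6a1, Cox7a2 and Cox8a (bottom) in each pool against weeks after surgery, with lines through group means and the same span of log2 units in each panel. Cox7a1 runs from 7.36 to 10.45 among the sham pools at 2 weeks, while Cox7a2 stays between 13.07 and 13.42 over all 26 arrays.

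Whether the isoforms followed the muscle markers was tested within groups, with group means removed, in 26 arrays and 6 genes. Cox6a2 (r = 0.91), Cox7a1 (r = 0.96) and Cox8b (r = 0.84) varied with the muscle score, with adjusted permutation p-values of 3e-05, 3e-05 and 0.0007 (raw p = 1e-05, 1e-05 and 0.00035, two-sided, 100000 resamples within groups, 1e-05 being the smallest possible). Spearman's rho was 0.90, 0.95 and 0.81. Cox6a1 (r = -0.49), Cox7a2 (r = 0.16) and Cox8a (r = -0.07) had adjusted permutation p-values of 0.161, 0.53 and 0.803 (raw 0.107, 0.441 and 0.803) and rho of -0.46, 0.18 and -0.16. Without the 2 arrays farthest from the median muscle score (sham replicate 3 at 2 weeks and time 0 replicate 1), r was 0.89, 0.95 and 0.96 for the muscle isoforms and -0.24, 0.18 and 0.05 for their counterparts. After quantile normalization r was 0.91, 0.96 and 0.84 for the muscle isoforms, -0.10 for Cox6a1, 0.49 for Cox7a2 (raw permutation p = 0.0667, adjusted p = 0.1) and -0.01 for Cox8a. With 9 groups of 2 or 3 pools the relation could not be given within each group.

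**Figure D4:**
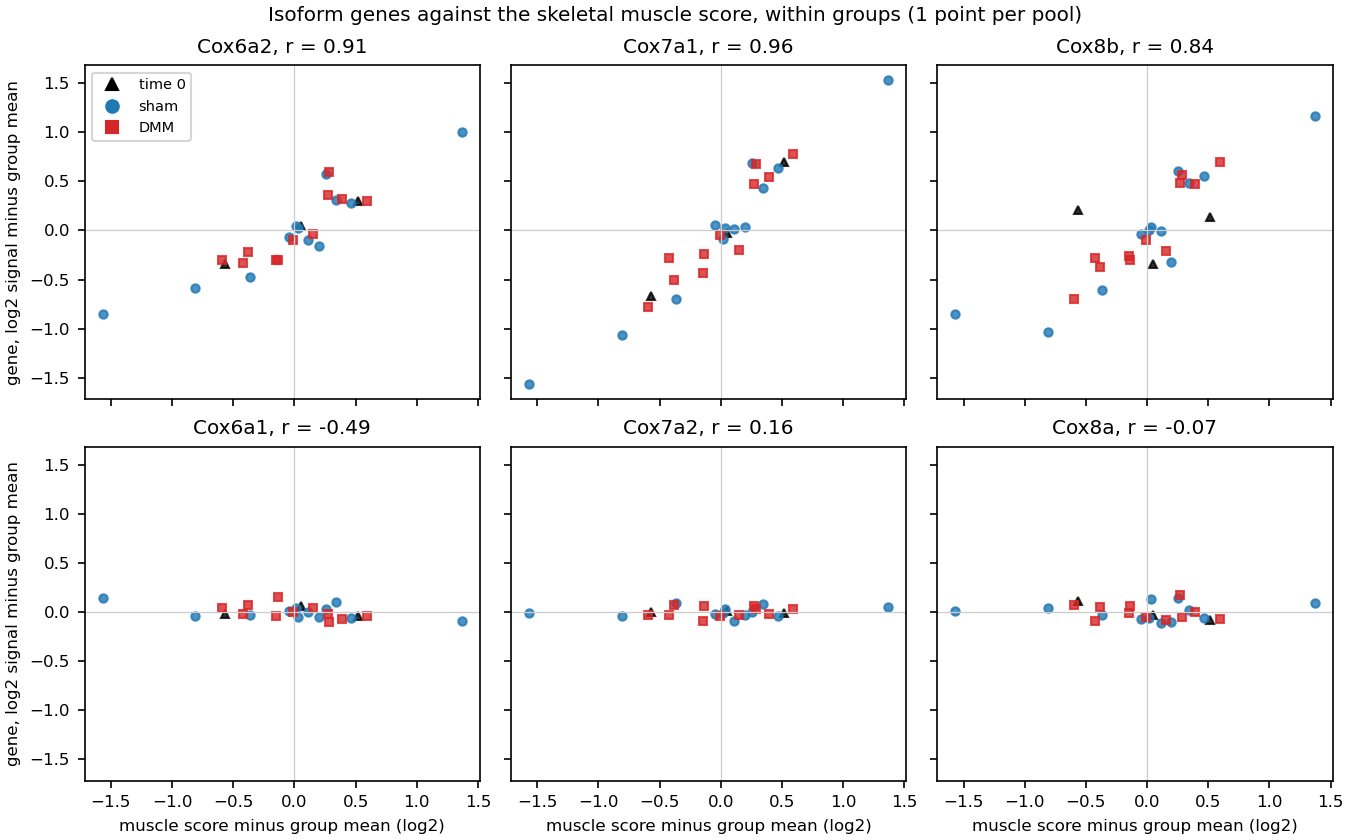
Deviation of each isoform gene from its group mean against the deviation of the muscle score, both in log2 units, 1 point per pool, with Pearson's r in each panel title. The 3 muscle isoforms rise with the muscle score (r of 0.91, 0.96 and 0.84), and their counterparts stay near 0 over the whole range.

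Other genes of the same pathway were read in the same fit, with DMM against sham at 4 weeks as the comparison. Of 11 tested electron carriers and exchangers, 5 fell (median -0.21), where 7.09% of all genes were called lower. These were cytochrome c (Cycs, by 0.34 ± 0.11), Etfb, which brings electrons from fatty acid oxidation (by 0.32 ± 0.09), the phosphate carrier Slc25a3 (by 0.22 ± 0.06), the adenine nucleotide carrier Slc25a5 (by 0.17 ± 0.06), the brightest of the list, and the outer membrane channel Vdac2 (by 0.17 ± 0.05). Ckmt2, the mitochondrial creatine kinase of muscle, had the lowest ratio, -0.77 ± 0.77 (adjusted p = 0.502). Of 15 genes of the TCA cycle, 2 fell, Fh1 (by 0.21 ± 0.07) and Idh3g (by 0.25 ± 0.07, the largest change of the list), with a median of -0.14, beside the same 7.09% of all genes, and the brightest, Mdh2, had -0.14 ± 0.09 (adjusted p = 0.261).

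Of 14 tested regulators of mitochondrial genes, 1 fell (Yy1, the brightest, by 0.16 ± 0.06, adjusted p = 0.0478), with a median near 0 (-0.0007). This count is near the share of all genes called lower (7.09%). Perm1, a regulator found in muscle, had the lowest ratio, -0.47 ± 0.22 (adjusted p = 0.14), and Nrf1 had -0.21 ± 0.08 (adjusted p = 0.0536). Ppargc1a, the gene of the coactivator PGC-1alpha, was below the filter with a mean log2 signal of 6.73. Of 12 complex IV assembly genes none was called (median -0.005), with Cox17, the brightest, at -0.17 ± 0.07 and Cox15 highest at 0.34 ± 0.13 (adjusted p = 0.0855 and 0.0707). ND5, a complex I subunit encoded by mitochondrial DNA, was the only gene of that genome read here, with a log2 ratio of -0.25 ± 0.15 (adjusted p = 0.252). At 2, 8 and 16 weeks the one call in these lists was a fall of Gabpb1 at 2 weeks.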

How the data were processed

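RNA of 26 pools was measured on Affymetrix whole-genome mouse expression arrays, 1 array per pool. Each of 45101 probe sets has a log2 signal per array, normalized by the authors with systematic variation normalization before they deposited it. How probes were combined into probe sets is not given in the sources used here. The values were used as deposited. Probe sets were named from the platform annotation (34958 with 1 symbol, 932 with several, 9211 with none). The 64 control probe sets were left out, and 22489 with a mean log2 signal above 7.93 were tested in limma 3.58.1 (R 4.3.3), with 1 coefficient per group, 17 residual degrees of freedom and Benjamini-Hochberg adjustment over all of them. A gene was called at an adjusted p under 0.05 in its brightest probe set. The fit was also run on simulated data with independent noise for each probe set, which does not cover shifts that many genes share within a pool. The p-values measure the spread between pools of separate mice, whose number limits the precision (an exact permutation p could not go below 0.1 with 3 pools per group, or 0.2 where a group had 2).

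The muscle score is the mean log2 signal of 20 tested muscle genes. The members, gene lists and comparisons were chosen with earlier results of these data known. Named genes are the tissue isoforms, the brightest subunit of each complex, the Sdh subunits, the 3 highest and 3 lowest ratios called in each comparison (or the extreme members where none was called) and the brightest and most changed gene of each other list. Alternatives were quantile normalization, no signal filter, only the groups compared, a replicate block, the muscle score or the Gapdh ratio as a term, the mean over all probe sets of a gene, and leaving out each pool.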

Additional observations from a re-analysis of the deposited data

Results flagged for a closer look

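Ndufaf3, a complex I assembly factor, had all DMM pools below all sham pools at 2 weeks and 4 weeks (mean log2 differences of -0.23 and -0.17) and all DMM pools above all sham pools at 16 weeks (0.13). The opposite directions drew attention. In the fit the change of the DMM effect from 16 to 4 weeks was -0.30 ± 0.08 for this gene and was not called (adjusted p = 0.223). The difference between 2 and 16 weeks was not tested.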

How the results depend on the processing

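The number of members called lower at 4 weeks in DMM against sham, of 91 tested, went from 38 to 16 under quantile normalization. It was 9 with only the groups compared, 23 with the muscle score as a term, and 8 to 41 without 1 pool. The share of all genes called lower was 7.09% in the main fit and 7.2%, 2.44% and 4.48% in the first 3 of these alternatives. Without 1 pool it was 1.5% to 11%. DMM against sham at 2 weeks went from 0 members to 1 under quantile normalization, 2 with the muscle score, 1 with the mean over probe sets, and 0 to 3 without 1 pool (3 without sham replicate 2, 1 without sham replicate 3). Sham at 2 weeks against time 0 went from 1 to 0 with no signal filter, quantile normalization, only the groups compared, the Gapdh ratio or the mean over probe sets, to 2 with the muscle score, and to 0 to 3 without 1 pool. Sham at 4 weeks against time 0 had 1 with the replicate block and 0 to 2 without 1 pool (2 without sham replicate 3). Sham at 16 weeks against time 0 had 1 with the mean over probe sets. DMM at 2 weeks against time 0 went from 9 to 5 with no filter, 21 under quantile normalization, 18 with the muscle score, 4 with the Gapdh ratio, and 5 to 8 without 1 pool. In the main fit of that comparison 16.5% of all genes were called lower and 16.4% higher. DMM at 4 weeks against time 0 went from 3 to 7 under quantile normalization, 0 with only the groups compared or with the Gapdh ratio, 6 with the replicate block, 9 with the muscle score, 1 with the mean over probe sets, and 0 to 9 without 1 pool. The difference between the DMM effects at 4 and 8 weeks went from 0 to 1 with the replicate block, 3 with the muscle score, and 0 to 8 without 1 pool (8 without sham 8 weeks replicate 1, 4 without DMM 4 weeks replicate 1). The correlation of Cox8a with the muscle score turned from -0.07 to 0.048 without the 2 farthest arrays. The causes were not tested. Apart from DMM against sham at 4 weeks, the share of all genes called in each alternative is not given here. A change in those counts is therefore not a result about the members alone. In DMM against sham at 8 and 16 weeks, sham at 8 weeks and DMM at 8 and 16 weeks against time 0, and the difference between 4 and 16 weeks, 0 members were called under every alternative.

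Among the named calls, 54 of 131 values without 1 pool and 105 of 161 under the other alternatives stayed past the threshold, and 0 changed direction. Pools were not treated as paired by replicate number in the main fit. Deviations of pools with the same number in different groups had a median correlation of 0.08 (from -0.42 to 0.73, 45 of 100 above 0.1). For 200 pairs with other numbers the median was -0.05 (from -0.61 to 0.55, 59 above 0.1). Whether pools with the same number share an effect was not tested. With the replicate block 42 members were called lower at 4 weeks, beside 8.39% of all genes. Depth does not apply to arrays, and the 3 members with low signals were not tested.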
